A study of Mus musculus with 15 samples.

Results

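The genes of enamel and dentine formation described here are *Amelx*, *Ambn*, *Enam*, *Amtn*, *Odam*, *Dspp* and *Klk4*, followed through the development of the mouse secondary palate. They were taken by gene symbol from the deposited table of read counts, and all 7 were found among its 54232 genes. The table holds 15 bulk RNA-seq libraries of wild-type palate, with 3 libraries at each of 5 stages: embryonic day (E) 13.5, 14.5, 15.5 and 16.5, and the day of birth (P0). Each library was made from the secondary palates of 3 embryos pooled before extraction, and no treatment or mutant allele is involved. The labels name neither a strain nor tooth tissue. A library is therefore a pool, and p-values measure the spread between pools.

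Enamel is laid down by ameloblasts, the inner epithelial layer of the tooth germ, and dentine by odontoblasts, the neural-crest-derived cells that face them. Ameloblasts first secrete a soft protein matrix made mainly of amelogenin, with ameloblastin and enamelin, and later remove it with the proteases MMP20 and KLK4 while the mineral crystals grow. In the mouse embryo the upper molar germs lie beside the palatal shelves. Molar and incisor germs pass from bud to cap to bell stage over these days, and begin to make matrix around birth. Palatal shelves themselves hold no tooth.

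*Amelx* encodes amelogenin (ENSMUSG00000031354.16, chromosome X, 169176114 to 169187200, minus strand, GRCm38). It lies within *Arhgap6* on the opposite strand and shares 0 exon bases with it. The other enamel matrix genes sit on chromosome 5, in the cluster of secretory calcium-binding phosphoprotein genes. These are *Ambn* for ameloblastin (ENSMUSG00000029288.11, 88455991 to 88468531), *Enam* for enamelin (ENSMUSG00000029286.12, 88487975 to 88506049), *Amtn* for amelotin (ENSMUSG00000029282.3, 88376108 to 88385916) and *Odam* for the odontogenic ameloblast-associated protein (ENSMUSG00000009580.15, 87885029 to 87894174). *Dspp* encodes the precursor of dentine sialoprotein and dentine phosphoprotein (ENSMUSG00000053268.7, chromosome 5, 104170712 to 104180127). *Klk4* encodes the maturation-stage protease (ENSMUSG00000006948.7, chromosome 7, 43881160 to 43885804). The last 6 are on the plus strand.

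The promoters of the enamel matrix genes are shown because they share a short sequence at nearly the same place. RefSeq promoter sequences (GRCm38.p6) were matched for 6 of the 7 genes, without *Dspp*. Each line gives the 90 bases before the RefSeq transcription start, 5′ to 3′ on the gene's own strand, and capitals mark TGATTGG. The *Amelx* window is chrX:169187210-169187299 on the minus strand. The others are on the plus strand: *Ambn* at chr5:88455901-88455990, *Enam* at chr5:88487885-88487974, *Amtn* at chr5:88376018-88376107, *Odam* at chr5:87884920-87885009 and *Klk4* at chr7:43881070-43881159.
Amelx: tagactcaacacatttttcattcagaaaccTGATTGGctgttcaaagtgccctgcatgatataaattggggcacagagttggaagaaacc
Ambn: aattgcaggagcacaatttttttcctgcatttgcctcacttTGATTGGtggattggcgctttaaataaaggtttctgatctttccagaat
Enam: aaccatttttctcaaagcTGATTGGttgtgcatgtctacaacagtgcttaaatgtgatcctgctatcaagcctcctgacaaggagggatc
Amtn: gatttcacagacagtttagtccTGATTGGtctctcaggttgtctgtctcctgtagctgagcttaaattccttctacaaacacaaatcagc
Odam: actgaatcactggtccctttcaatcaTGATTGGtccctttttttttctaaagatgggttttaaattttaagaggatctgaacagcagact
Klk4: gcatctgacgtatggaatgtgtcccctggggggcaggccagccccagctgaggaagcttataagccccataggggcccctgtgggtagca
TGATTGG contains ATTGG, the reverse complement of the CCAAT box. It was found on the gene strand in 5 of the 6 promoters, starting 60 bases before the transcription start in *Amelx*, 49 in *Ambn*, 72 in *Enam*, 68 in *Amtn* and 64 in *Odam*. These letters do not occur in the *Klk4* window. Over all 32851 RefSeq promoters of 300 bases, 4.01% hold TGATTGG on the gene strand and 7.82% on either strand, and 1.60% hold it on the gene strand between 100 and 41 bases before the start. The sequence was chosen after the promoters had been seen. The shorter ATTGG is on the gene strand of the same number of promoters, 5 of 6, and of 22.1% of all promoters. Other letters searched on both strands were TGTGGT, a core bound by RUNX factors, in 1 of 6 promoters and 16.8% of all, and TAATT, a homeodomain core, in 4 of 6 and 27.0%. No factor binding was measured in these libraries.

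**Figure D1:**
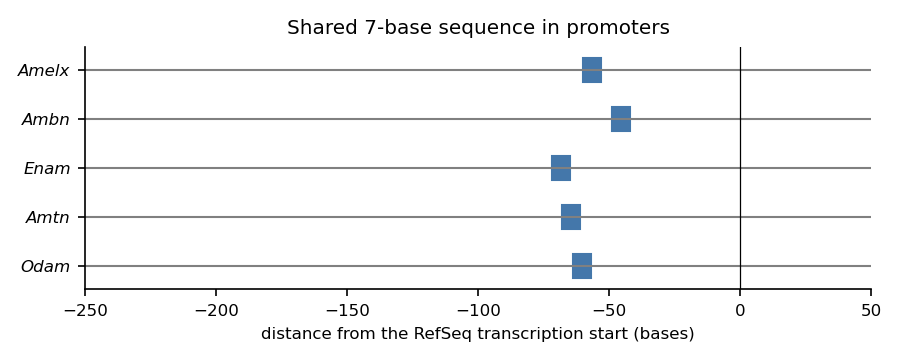
Position of the shared 7-base sequence in the promoters of the 5 enamel matrix genes that hold it. The x axis is the distance in bases from the RefSeq transcription start, grey lines span the 300-base promoter, and each square marks the match, which lies between 72 and 43 bases before the start in all 5 genes.

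Library totals ran from 21470759 to 69019565 counts, highest at E13.5 and E14.5 and lowest in P0 library 3. Levels are given as counts per 1000000 (CPM) on the TMM-adjusted library size, and a library was read as holding a transcript where it had more than 3 counts. Counting intervals cover counting error only. Stages were compared with edgeR's quasi-likelihood F test over all 22151 genes past the filter on low counts, with Benjamini-Hochberg adjustment. *Amelx*, *Ambn*, *Enam*, *Odam* and *Klk4* passed that filter and *Amtn* and *Dspp* did not. In bulk tissue, fewer cells of a type and less RNA per cell cannot be told apart. Comparisons that share a stage share its libraries. Y-linked transcripts differed between pools: *Ddx3y* was at 0.0277 to 0.0647 CPM in the 3 E16.5 libraries, against 26.9 CPM in P0 library 1. Pools of the same stage differed too. *Ddx3y* was at 0.201 CPM in E13.5 library 1 and at 0.152 CPM in E15.5 library 1 and P0 library 2. The other libraries of those stages had 16.1 to 54.5 CPM.

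All 7 genes were rare in the palate. From E13.5 to P0 the enamel matrix genes *Amelx*, *Ambn*, *Enam* and *Odam* rose, and of these *Amelx* alone was called in a single step, while *Amtn* and *Dspp* stayed near the detection limit and *Klk4* had its highest mean at E14.5. The calls of *Ambn* and *Odam* over that span were lost without some single libraries, P0 library 3 among them. On the scale of CPM per kilobase of exon (RPKM), *Ambn* had the highest mean at E13.5 (0.544 ± 0.291 RPKM, SD, n = 3) and at E15.5 (2.11 ± 1.34 RPKM). *Klk4* had it at E14.5 (0.726 ± 0.687 RPKM), and *Odam* at E16.5 (2.90 ± 3.91 RPKM) and P0 (3.25 ± 5.48 RPKM). At E16.5 and P0 the order was *Odam*, *Ambn*, *Amelx*, and these 3 overlapped within 1 SD of their means. *Amelx* was at 0.679 ± 0.292 and 1.86 ± 1.58 RPKM at those stages, above *Amtn*, the next gene, at 0.0682 ± 0.0528 and 0.167 ± 0.0618 RPKM, without overlap of these intervals. The remaining genes at those stages overlapped with their neighbours in the order. At E15.5 *Odam* (0.824 ± 0.553 RPKM) did not overlap with *Amelx* (0.133 ± 0.104 RPKM), the next gene.

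**Figure D2:**
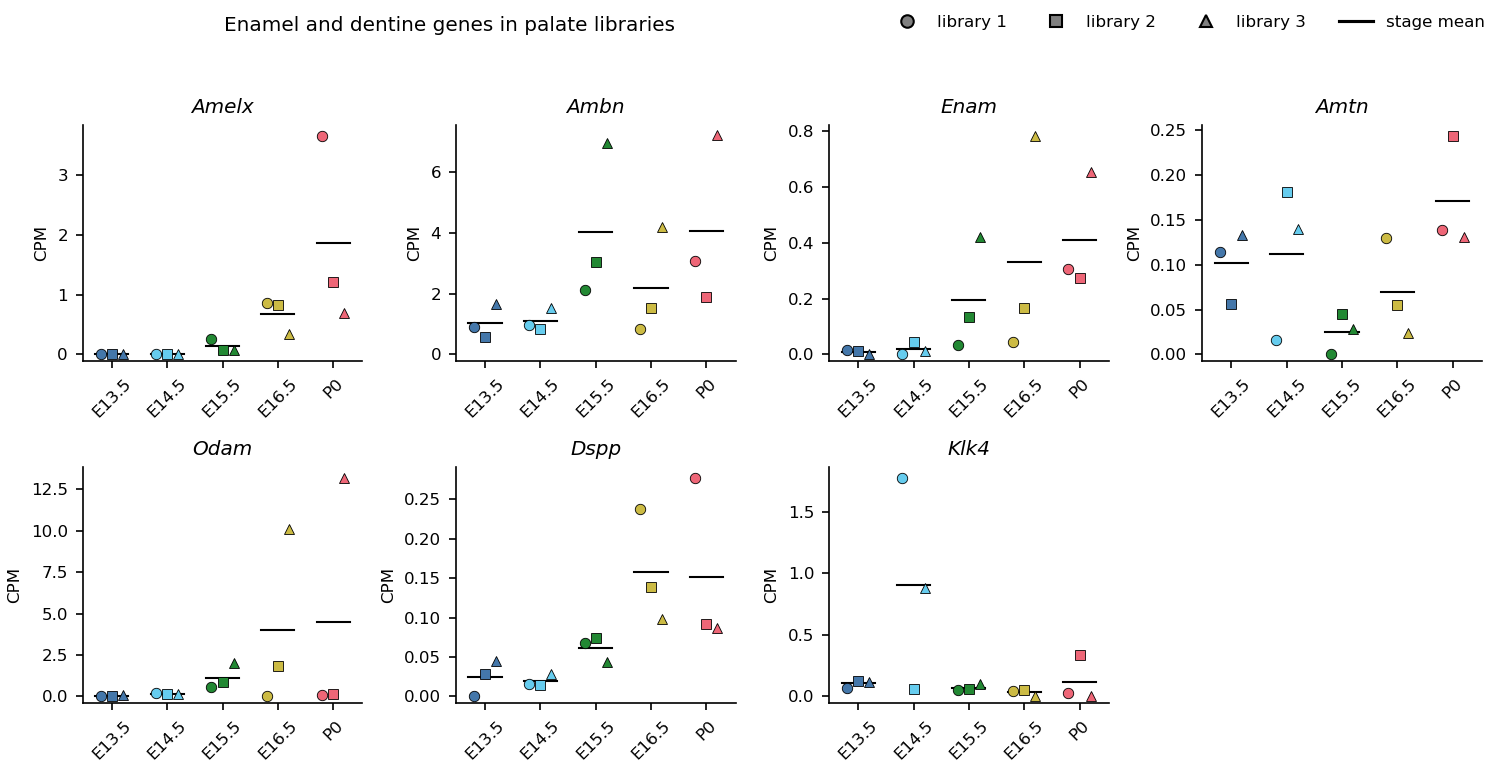
Level of each of the 7 genes in every library, in TMM-adjusted CPM on a linear axis that differs between panels, with stages on the x axis, circles, squares and triangles for libraries 1, 2 and 3, and a bar for the stage mean. *Amelx* is highest in P0 library 1 (3.66 CPM), *Odam* in P0 library 3 (13.2 CPM) and *Klk4* in E14.5 library 1 (1.78 CPM).

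Over the 5 stages as a whole, all 5 genes that could be tested differed (edgeR F test, adjusted p 5.36e-05 for *Amelx*, 0.00971 for *Klk4*, 0.0113 for *Enam*, 0.0418 for *Odam* and 0.0452 for *Ambn*), where 59.1% of all tested genes did. *Amelx* and *Enam* kept this call in each of 15 fits that left out 1 library, and *Klk4* in 14 of 15. *Ambn* and *Odam* kept it in 5 of 15 each, with adjusted p up to 0.0976 and 0.0977. From E13.5 to P0, 4 of the 5 rose and none fell, against 56.6% of all tested genes called, 29.8% higher and 26.8% lower. Of these calls, those of *Ambn* and *Odam* held in only 3 of 6 fits that left out 1 library of the contrast. From E14.5 to E15.5, 1 of the 5 genes rose and 1 fell, against 26.1% called, 12.7% higher and 13.4% lower. Those 2 calls, of *Amelx* and *Klk4*, held in 2 of 6 such fits each.

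*Amelx*, the main protein of the forming enamel matrix, went from absent to readily counted. It had 1, 0 and 0 counts in the E13.5 libraries and 1, 0 and 0 at E14.5. It then had 15, 5 and 5 counts at E15.5 (0.253, 0.0745 and 0.0723 CPM), 40, 30 and 14 at E16.5 (0.863, 0.830 and 0.342 CPM) and 132, 40 and 16 at P0 (3.66, 1.22 and 0.696 CPM). Every library from E15.5 on was above the 3-count limit and none before it was. E15.5 lay wholly above E14.5, and E16.5 wholly above E15.5, while P0 and E16.5 overlapped. The summed level at E15.5 was 25.8 times that at E14.5, with a 95% counting interval of 4.22 to 1057 since E14.5 held 1 count.

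The fitted log2 change of *Amelx* from E14.5 to E15.5 was 4.20 (SE 1.18, adjusted p 0.0224 in edgeR's quasi-likelihood test). Its size depends on the prior count, since E14.5 is near 0. The call was lost in 4 of 6 fits without 1 library of the contrast, at adjusted p 0.0525, 0.0760 and 0.0592 without E14.5 library 1, 2 and 3 and 0.0731 without E15.5 library 1 (range 0.0358 to 0.0760). The step to E16.5 (2.35, SE 0.73, adjusted p 0.104) and that from E16.5 to P0 (1.46, SE 0.66, adjusted p 0.417) missed the threshold. Over the whole span from E13.5 to P0 the log2 change was 8.05 (SE 1.06, adjusted p 6.02e-05), and it held in all 6 fits that left out 1 library of that contrast (adjusted p 3.91e-05 to 0.000634).

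*Ambn*, a cell-adhesion component of the enamel matrix, was the only one of the matrix genes with more than 3 counts in every library, before tooth matrix is made as well as after. It was at 0.888, 0.577 and 1.66 CPM at E13.5 and 0.981, 0.832 and 1.52 CPM at E14.5, on 41 to 112 counts a library. It was at 2.11, 3.05 and 6.97 CPM at E15.5, 0.841, 1.52 and 4.18 CPM at E16.5 and 3.08, 1.89 and 7.22 CPM at P0. Library 3 was the highest at every stage. E15.5 lay above E14.5 without overlap, but the log2 change of 1.86 (SE 0.68) had an adjusted p of 0.0594. E16.5 overlapped with both neighbours. The log2 change from E13.5 to P0 was 1.95 (SE 0.68, adjusted p 0.0273). That call was lost without P0 library 3 (adjusted p 0.134) and without E13.5 library 1 or 2 (0.0831 and 0.0978), over a range of 0.0180 to 0.134.

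*Enam*, which encodes the largest protein of the enamel matrix, had 1, 1 and 0 counts at E13.5 and 0, 3 and 1 at E14.5. It had 2, 9 and 29 counts at E15.5, 2, 6 and 32 at E16.5 and 11, 9 and 15 at P0 (0.305, 0.274 and 0.653 CPM). Library 3 was the highest at the last 3 stages, and library 1 stayed under the limit at E15.5 and E16.5. From E13.5 to P0 the summed level rose 39.7-fold, with a 95% counting interval of 10.2 to 340. The fitted log2 change was 5.09 (SE 1.32, adjusted p 0.00573), and it held without each library of the contrast (adjusted p 0.00921 to 0.0223). From E14.5 to E15.5 the stages overlapped, and the log2 change of 3.18 (SE 1.20) had an adjusted p of 0.0684.

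*Odam*, made by maturation-stage ameloblasts and by the epithelium that attaches gum to tooth, differed most between libraries of 1 stage. It had 0, 3 and 4 counts at E13.5 and 15, 10 and 9 at E14.5, then 33, 57 and 138 at E15.5 (0.556, 0.849 and 1.99 CPM). It had 0, 67 and 413 counts at E16.5 (0, 1.85 and 10.1 CPM) and 4, 4 and 303 at P0 (0.111, 0.122 and 13.2 CPM). Up to E15.5 the stages did not overlap and the level was higher at each. At E16.5 and P0 library 3 stood far above the others, and E16.5 library 1 had no count, which allows a level of up to 0.0574 CPM of its raw total.

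From E13.5 to P0 the log2 change of *Odam* was 6.94 (SE 2.2, adjusted p 0.0169). Without P0 library 3 it was 1.75 with an adjusted p of 0.493, and the call was also lost without E13.5 library 1 or 2 (0.0609 and 0.0537), over a range of 0.0107 to 0.493. The change from E14.5 to E15.5 (2.72, SE 1.76, adjusted p 0.268) did not pass in the fit over 15 libraries. In a fit of the 6 libraries of that contrast alone it did (2.74, adjusted p 0.0171), as did that of *Ambn* (1.86, adjusted p 0.0353). *Amelx*, *Enam* and *Klk4* did not pass the filter on low counts in that fit and have no value there.

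*Amtn*, made by maturation-stage ameloblasts, was at the limit throughout. It had 8, 4 and 9 counts at E13.5, 1, 12 and 10 at E14.5, 0, 3 and 2 at E15.5, 6, 2 and 1 at E16.5 and 5, 8 and 3 at P0. In the 5 comparisons tested the stages overlapped, except P0 and E16.5. Of the 5 exact permutation tests over libraries (2-sided), the lowest p was 0.10, for P0 against E16.5, the smallest that 3 against 3 allows (0.25 adjusted over 10 tests of both filtered genes). No comparison could reach 0.05 in that test. By counting error alone, the summed level at E15.5 was 0.224 times that at E14.5 (95% counting interval 0.0665 to 0.602), which leaves out the spread between libraries.

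*Dspp*, the defining matrix gene of odontoblasts, which bone cells also make at low level, had 0, 2 and 3 counts at E13.5 and 1, 1 and 2 at E14.5. It had 4, 5 and 3 counts at E15.5, 11, 5 and 4 at E16.5 and 10, 3 and 2 at P0. The highest library was number 1 at E16.5 (0.237 CPM) and at P0 (0.277 CPM). E15.5 lay above E14.5 and E16.5 above E15.5, each with an exact permutation p of 0.10, the smallest possible, as did P0 above E13.5 (0.25 adjusted over the 10 tests in each case). The summed level at P0 was 6.80 times that at E13.5 (95% counting interval 2.35 to 23.9). With no filter on low counts, edgeR's test gave a log2 change of 2.58 from E13.5 to P0 (adjusted p 0.0214).

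*Klk4*, the protease that clears the matrix from maturing enamel, did not follow the matrix genes. It had 5, 9 and 8 counts at E13.5, 114, 4 and 63 at E14.5 (1.78, 0.0605 and 0.885 CPM), 3, 4 and 7 at E15.5, 2, 2 and 0 at E16.5 and 1, 11 and 0 at P0. Only E14.5 libraries 1 and 3 exceeded 0.4 CPM, and E14.5 library 2 was at the level of the other stages, so that E14.5 overlapped with both neighbours. The log2 change from E14.5 to E15.5 was -3.63 (SE 1.07, adjusted p 0.0266). The call was lost without E14.5 library 1 (adjusted p 0.136) and without any 1 of the E15.5 libraries, over a range of 0.0142 to 0.136. Without both high E14.5 libraries, which leaves E14.5 library 2 alone with the spread taken from the other stages, the change was 0.26. Since these were the libraries high in *Klk4*, that value follows from leaving them out and is no separate test. The change from E13.5 to E14.5 (3.07, SE 1.02) had an adjusted p of 0.201, in a contrast with 0.00903% of genes called and 16% at an unadjusted p under 0.05. *Klk4* was the 1 of the 5 tested genes at that unadjusted level (p 0.0102).

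The same 2 libraries held high transcripts of the choroid plexus, the brain epithelium that makes cerebrospinal fluid. *Ttr*, its transthyretin gene, was at 1224, 8.64 and 673 CPM in E14.5 libraries 1, 2 and 3, and the channel subunit *Kcne2* at 37.5, 0.257 and 22.1 CPM. Of 8 such markers, a list made after the libraries had been seen, the summed level was 1445, 32.2 and 794 CPM at E14.5 and 29.1 to 495 CPM in the other stages' libraries. All 8 were detected in both libraries, but *Ttr* alone made 1224 and 673 CPM of the sums in libraries 1 and 3. Over all 15 libraries *Ttr*, *Kcne2*, *Otx2*, *Kcnj13* and *Slc4a5* were highest in E14.5 library 1. *Clic6* was higher in P0 library 3 (118 against 72.1 CPM). *Folr1* (14.8 against 12.1 CPM) and *Kl* (4.38 against 2.06 CPM) were higher in E16.5 library 1. Among all genes with a mean of at least 1 CPM, *Kcne2* was the one whose log2 CPM over the 15 libraries was most like that of *Klk4* (Pearson r 0.84). *Vwa5b1* (r 0.84) was nearly as close, followed by *Slc25a46*, *Zfand5* and *Erlin2* (r 0.81 each), none of them in the choroid plexus list. The part of these transcripts in the *Klk4* result was not tested. Maturation-stage enamel is not made at this age.

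**Figure D3:**
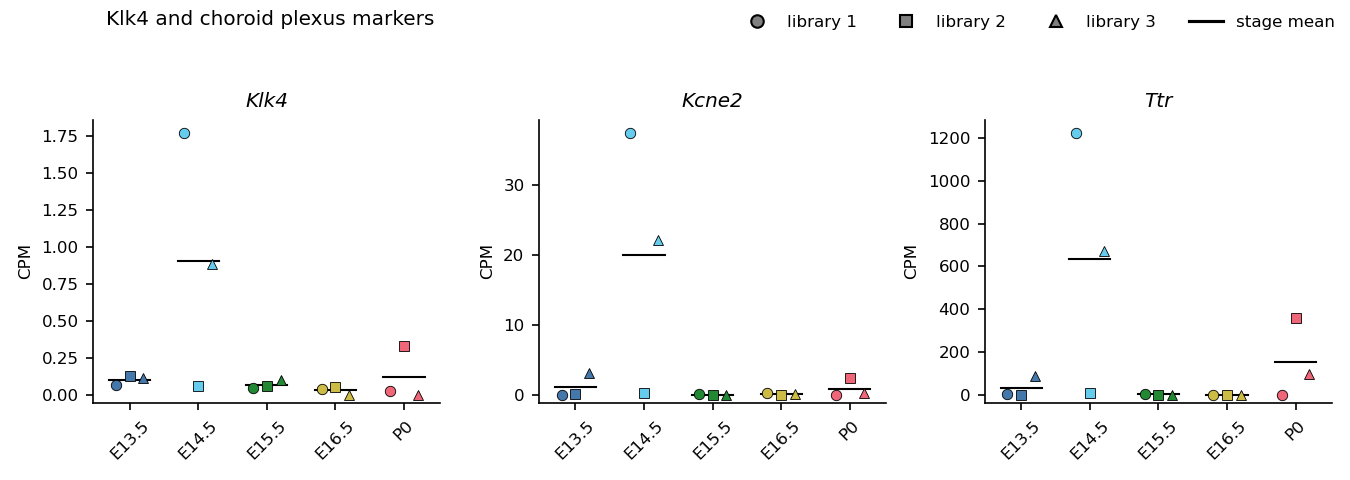
*Klk4* beside the choroid plexus markers *Kcne2* and *Ttr*, in CPM on linear axes that differ between panels, with stages on the x axis, a symbol for each library and a bar for the stage mean. In all 3 panels E14.5 libraries 1 and 3 are the highest points, and E14.5 library 2 lies with the other stages.

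**Figure D4:**
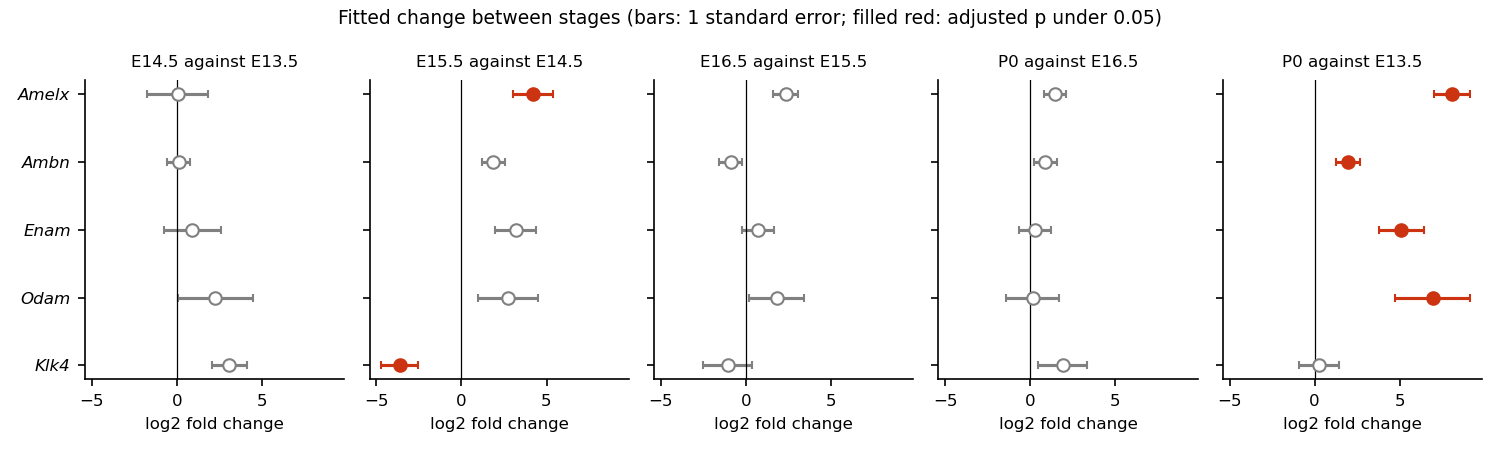
Fitted log2 fold change of the 5 tested genes in each comparison of stages, with bars of 1 standard error and filled red points where the adjusted p is under 0.05. The called changes are *Amelx* up and *Klk4* down from E14.5 to E15.5, and *Amelx*, *Ambn*, *Enam* and *Odam* up from E13.5 to P0.

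In the other single steps no gene of the 7 was called by edgeR. From E15.5 to E16.5, 1.41% of all tested genes were called and 21.8% had an unadjusted p under 0.05, as did *Amelx* (p 0.00697) among the 5 tested. From E16.5 to P0, 0.352% were called and 11.7% had an unadjusted p under 0.05, again with *Amelx* (p 0.0463). DESeq2 called 1 of the genes from E15.5 to E16.5, *Amelx* (adjusted p 0.0396), and none from E16.5 to P0 or from E13.5 to E14.5. The share of all genes that DESeq2 called is not given beside it.

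Which libraries hold transcripts of the tooth matrix genes was then read from the counts. A library was taken to hold enamel-organ transcripts where at least 2 of *Amelx*, *Ambn* and *Enam* had more than 3 counts. This held in all 9 libraries from E15.5 on and in 0 of the 6 before. A germ that makes no matrix yet cannot meet the rule, so failing it does not show that a library lacks tooth germ. E16.5 library 1 met the rule on 40 counts of *Amelx* and 39 of *Ambn*, with 0 of *Odam* and *Sp6* at 2.22 CPM. Its *Ambn* level (0.841 CPM) was below that of E13.5 library 1 (0.888 CPM), which did not meet the rule. *Ambn* exceeded 3 counts, and 10, in all 15 libraries, so the rule turns on whether *Amelx* or *Enam* passed. With more than 10 counts it held in 8, without E15.5 library 2. *Dspp* exceeded 3 counts in 6 libraries: E15.5 libraries 1 and 2, the 3 of E16.5 and P0 library 1. It exceeded 10 counts in 1, E16.5 library 1. The limit is on raw counts, so the list of libraries depends on depth. P0 libraries 2 and 3, not over 3 counts, were at 0.0914 and 0.0870 CPM of *Dspp*. E15.5 libraries 1 and 2, over it, were lower at 0.0674 and 0.0745 CPM. *Mmp20*, the protease of secretory ameloblasts, was at most at 0.0610 CPM in any library.

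The genes of the tooth germ itself, signalling centres and dental epithelium included, gave a different order of libraries. *Sp6*, the epiprofin gene that ameloblasts need, was at 5.54, 8.67 and 30.9 CPM in E15.5 libraries 1, 2 and 3, at 2.22, 26.1 and 157 CPM at E16.5 and at 4.19, 3.38 and 100.4 CPM at P0. *Shh*, a signal of the enamel knot and also of palatal rugae, was at 2.63, 4.48 and 10.3 CPM at E15.5, 0.777, 12.7 and 69.0 CPM at E16.5 and 1.33, 0.945 and 56.2 CPM at P0. Library 3 was the highest at each of these stages, followed at E16.5 by library 2, and *Odam* too was highest in library 3 at each of them. *Sp6* was the gene most like *Odam* over the 15 libraries (r 0.96), followed by *Dsg1a*, a desmoglein of stratified epithelium (r 0.93), *Wnt10b*, a Wnt ligand of the dental placode, *Vwde* and *Aox4* (r 0.92 each).

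Of 18 tooth germ epithelium genes, library 3 was the highest for 13 at E15.5 (35.1% of all tested genes), for 13 at E16.5 (28.9%) and for 15 at P0 (35.1%). Of 14 dental mesenchyme genes, 10, 12 and 12 were highest there. The summed level of the epithelial list was 260, 320 and 485 CPM at E15.5, 209, 476 and 809 CPM at E16.5 and 220, 268 and 743 CPM at P0. That of the mesenchymal list was 166, 320 and 521 CPM at E16.5 and 211, 223 and 480 CPM at P0. Several of these genes also act in other oral tissues, and of 9 stratified oral epithelium genes 9, 7 and 6 were highest in library 3 at those stages. Lists of other tissues were often highest there too. It was so for 9, 8 and 5 of 10 osteoblast markers and 5, 2 and 4 of 6 palate shelf markers. For hair follicle genes it was 6, 3 and 2 of 6, and for gland and nasal secretory markers 4, 0 and 1 of 10. No gene of these lists is the defining product of a molar.

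**Figure D5:**
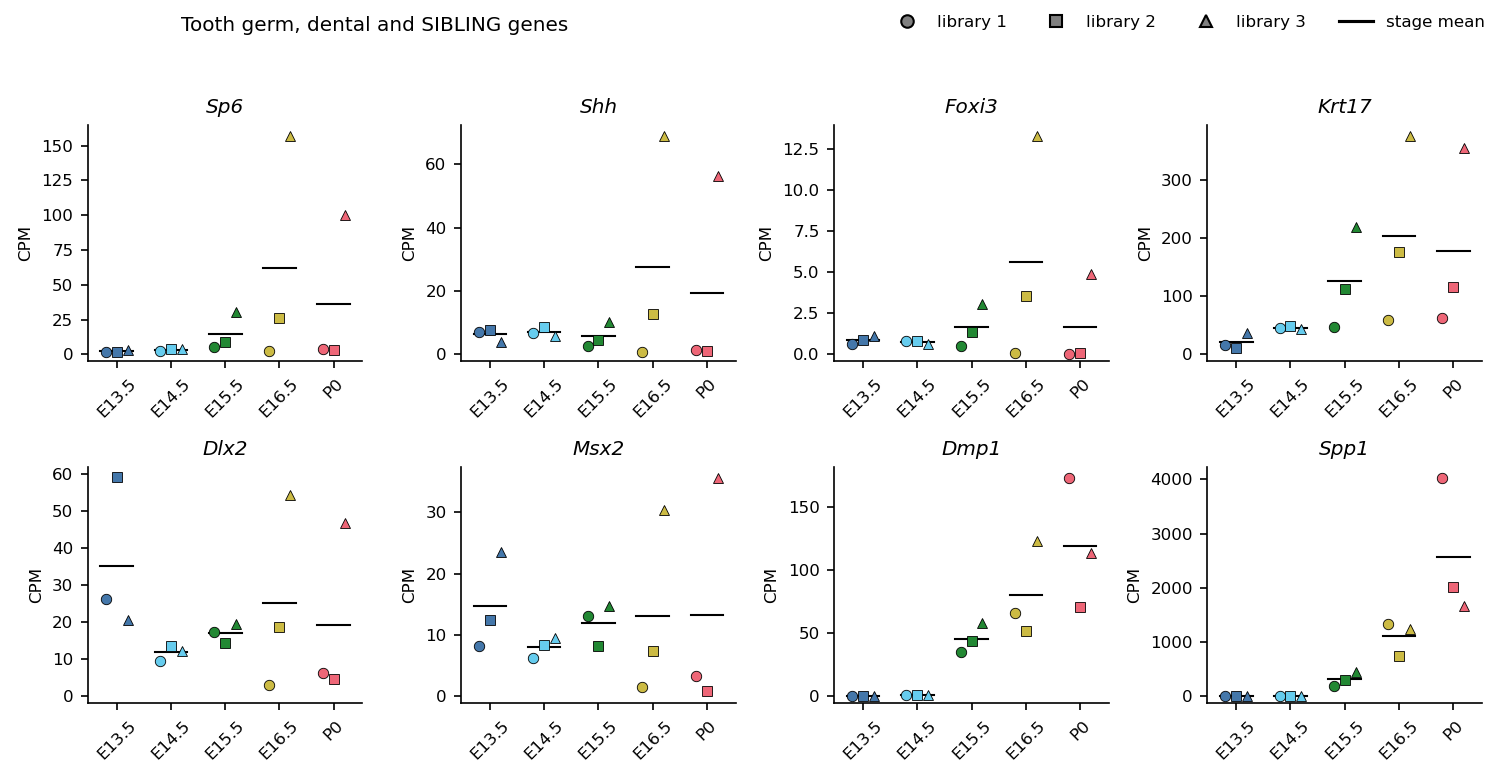
Tooth germ, dental and SIBLING genes in CPM in every library, on linear axes that differ between panels, with stages on the x axis, circles, squares and triangles for libraries 1, 2 and 3, and a bar for the stage mean. *Sp6*, *Shh*, *Foxi3*, *Krt17*, *Dlx2* and *Msx2* are highest in library 3 at E16.5 and P0, while *Spp1* is highest in P0 library 1 (4029 CPM).

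Molar and incisor germ cannot be told apart from these data. *Barx1*, which marks molar mesenchyme but also palatal mesenchyme, was at 17.5, 53.4 and 75.0 CPM at E16.5 and 54.8, 20.7 and 78.8 CPM at P0. *Isl1*, which marks incisor epithelium but also other oral and neural tissue, was at 34.7, 54.9 and 16.4 CPM at E16.5 and 35.3, 28.7 and 10.1 CPM at P0. In both stages library 3, with the most *Sp6* and *Odam*, had the most *Barx1* and the least *Isl1*. At E13.5 *Barx1* was already at 46.1 to 106 CPM in libraries that did not meet the rule for enamel-organ transcripts.

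*Amelx* and *Dspp* followed another order. At P0 both were highest in library 1, in which *Sp6* and *Odam* were low, and at E16.5 both were highest in library 1 and lowest in library 3. *Dspp* had only 2 to 11 counts a library there, and *Amelx* was close in E16.5 libraries 1 and 2 (0.863 and 0.830 CPM). At E15.5 *Amelx* was highest in library 1 (0.253 CPM) and *Dspp* in library 2 (0.0745 CPM). Across the 15 libraries the Pearson r of log2 CPM with *Amelx* was 0.27 for *Odam*, 0.41 for *Ambn* and 0.66 for *Enam*, while *Ambn*, *Enam* and *Odam* had r of 0.75 to 0.81 with each other. The genes most like *Amelx* were *Dnajb12*, *Cyb5r3*, *Creb3*, *Gpr146* and *Acbd4* (r 0.97 to 0.98), none of which is in a list of enamel or tooth genes. Those most like *Ambn* were *Gm43618*, *Ptgfr*, *B4galnt3*, *Tcf7* and *Rerg* (r 0.89 to 0.93). Those most like *Enam* were *Calm4*, *Spink5*, *Fam25c*, *Ptgfr* and *Rptn* (r 0.93 to 0.95), of which *Spink5* and *Rptn* are genes of cornifying epithelium. These r values describe libraries that share stage, and carry no test.

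Of the 10 dentine and SIBLING genes measured, 9 were highest in P0 library 1, against 30.6% of all tested genes. Of 10 osteoblast markers, 4 were highest there, near that share, and 5 in library 3. *Col1a1*, *Ibsp*, *Dmp1* and *Phex* are in both lists. The bone matrix genes *Bglap* (28.1 against 21.1 CPM) and *Bglap2* (28.7 against 27.9 CPM) were higher in library 3 than in library 1. Library 1 had the most *Spp1*, the osteopontin gene (4029 CPM against 2009 and 1665), and the most *Dmp1*, a matrix gene of osteocytes and odontoblasts (173 CPM against 70.6 and 114). The summed level of 10 osteoblast markers was 31300 CPM there, against 16272 and 18147 CPM in the other P0 libraries, and *Col1a1* alone, the type I collagen gene, made 28838 CPM of it. The osteoblast transcription factor genes *Runx2* (53.9 CPM against 74.7) and *Sp7* (100.3 CPM against 102.8) were lower in library 1 than in library 3. At E16.5 the same sum was 15261, 14298 and 19897 CPM, highest in library 3 and not in library 1. Dentine and SIBLING genes did not keep the P0 order either. At E16.5, 7 of the 10 were highest in library 3, which was lowest in *Amelx* and *Dspp*, and 2 in library 1. The shares of all tested genes were 28.9% and 39.7%. At E15.5, 6 were highest in library 3 and 4 in library 1 (35.1% and 41.5% of all tested genes). The part of bone RNA in the *Dspp* and *Amelx* counts was not tested.

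Other genes of enamel and dentine formation were taken from lists. Of 19 ameloblast and amelogenesis genes 18 were tested, and 5 rose and none fell from E14.5 to E15.5, where 12.7% of all tested genes rose and 13.4% fell, with a median log2 change of 0.65 against 0.03 over all genes. Among the called genes with a mean of at least 1 CPM, the largest rises were those of *Lamb3*, a laminin chain of basement membrane (9.40 ± 1.69 to 27.8 ± 11.1 CPM, SD, n = 3; log2 change 1.57, adjusted p 0.0115), the integrin chain gene *Itgb6* (1.11, adjusted p 0.0235) and *Fam20a*, a cofactor of the kinase that phosphorylates enamel proteins (1.10, adjusted p 0.0142). Between E13.5 and P0, 14 of 18 rose and 1 fell, against 29.8% and 26.8% of all tested genes (median 1.66 against 0.03). *Sp6* (3.90, adjusted p 0.0375) and *Wdr72*, which acts in maturing ameloblasts (3.21, adjusted p 4.76e-05), were among the largest rises, and *Amer1* fell (-0.93, adjusted p 0.00134). *Amer1* was at 29.9 to 77.7 CPM over all libraries, and its place in the list does not make it a marker of enamel. Most of these genes are also expressed by other epithelia or bone. The rise of *Sp6* lies in P0 library 3, as the values above show.

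Of the 10 dentine and SIBLING genes measured, 7 rose and none fell from E14.5 to E15.5, against 12.7% and 13.4% of all tested genes (median log2 change 2.81 against 0.03). *Dmp1* rose from 0.989 ± 0.0443 to 45.8 ± 11.5 CPM (5.53, adjusted p 5.05e-05), and *Spp1* (5.15, adjusted p 0.000205) and *Ibsp*, bone sialoprotein (4.20, adjusted p 0.00147), rose with it. By P0, relative to E13.5, 8 of 10 rose, against 29.8% of all tested genes, and *Mepe*, which had no count in any E13.5 library, was at 7.54, 2.74 and 6.27 CPM at P0. Bone and dentine share these genes. Of 10 osteoblast markers, 9 rose and none fell in each of those comparisons, with the same shares over all tested genes.

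The tooth germ lists were counted in the same way. Of the 18 epithelial genes, none rose and 2 fell from E14.5 to E15.5 (12.7% and 13.4% of all tested genes), *Slit1* (-2.34, adjusted p 0.0216) and *Irx1* (-1.87, adjusted p 0.0220). From E13.5 to P0, 2 rose and 3 fell (29.8% and 26.8% of all tested genes): *Krt17* (3.07, adjusted p 0.00598) and *Wnt10a* (2.33, adjusted p 0.00230) rose, and *Irx1* (-1.69), *Slit1* (-1.64) and *Fgf9* (-0.67) fell. Of 14 dental mesenchyme genes, none was called from E14.5 to E15.5, with 2 at an unadjusted p under 0.05. From E13.5 to P0 none rose and 7 of 14 fell, against 26.8% of all tested genes that fell, *Dlx1* (-2.54, adjusted p 0.00412), *Tfap2b* (-2.05, adjusted p 0.0376) and *Lef1* (-2.03, adjusted p 0.00259) the most (median -1.36). Several of the mesenchymal genes also act in the shelf mesenchyme, so these levels are not those of teeth alone.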

How the data were processed

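RNA was extracted from pooled palates with a NucleoSpin kit and made into Illumina libraries, per the labels' protocols. The submitters' processing notes name mm10, cutadapt 3.4, HISAT2 2.2.1, SAMtools 1.12 and Subread 2.0.1. The deposited values are raw counts per gene, made by the authors with featureCounts 2.0.1 on the reverse strand in paired mode with GENCODE M18, per the file headers. Input names mention duplicate marking, and no option dropping duplicates is recorded. Symbols came from GENCODE M21 (54079 of 54232 IDs). The other deposited column is gene length.

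Counts were fitted in edgeR 4.0.16 (R 4.3.3) with TMM, filterByExpr (minimum count 10), 1 coefficient per stage over 15 libraries, and Benjamini-Hochberg adjustment at 0.05 over 22151 genes (common biological coefficient of variation 0.332). The fit was tested on simulated data. log2 CPM used a prior count of 2. The 2 filtered members had exact permutation tests. Stages group the samples. Total counts per library were 21470759 to 69019565, so that 3 counts are 0.0435 to 0.140 CPM of the raw total. The 7 members were all named. List genes were named where they were among the 3 largest rises or falls of a comparison with a mean of at least 1 CPM, and 5 genes most like each tested member were named by Pearson r. *Barx1*, *Isl1*, *Mmp20* and *Dmp1* were named to check the tissue. Genes that these rules would also name are in part not reported here. *Shh*, *Foxi3*, *Dlx2*, *Msx2*, *Ttr*, *Kcne2*, *Spp1*, *Col1a1*, *Runx2*, *Sp7*, *Mepe*, *Ddx3y* and the genes in observations were named after their values were seen. So were *Bglap*, *Bglap2* and the other choroid plexus markers. The members and lists were chosen with earlier results of these data known, and the choroid plexus and hair follicle lists after the libraries were seen. Alternatives were DESeq2 1.42.0, other normalizations and filters, 6-library fits, a replicate block and leaving out libraries. *Ssuh2* did not match by symbol. Replicate numbers 1 and 2 did not pair the libraries, while number 3 matched best with its own in all 5 comparisons.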

Additional observations from a re-analysis of the deposited data

How the results depend on the processing

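Counts of members called kept within 1.5 times of the reported ones under DESeq2 size factors, upper-quartile scaling, no filter and 6-library fits (there *Ambn* and *Odam* from E14.5 to E15.5, since *Amelx* and *Klk4* did not pass the filter of that fit). Upper-quartile scaling moved the median log2 change of all genes from E14.5 to E15.5 from 0.03 to 0.16. The low counts decide most of the rest. DESeq2 called 4 members from E14.5 to E15.5 (*Ambn* and *Enam* added to the 2 reported) and 1 from E15.5 to E16.5. A filter at a mean of 1 CPM, which removes *Amelx*, *Enam* and *Klk4*, left 0 called from E14.5 to E15.5, 2 from E13.5 to P0 and 2 over 5 stages. Leaving out 1 library gave 0 to 4 from E14.5 to E15.5, 3 to 5 from E13.5 to P0, 3 to 6 over 5 stages, and 0 in the other steps. Member counts under these settings, and with the replicate block below, are not set against the share of all genes called in the same fit. They do not tell whether a setting called more genes in general. Without E14.5 libraries 1 and 3, chosen after seeing the data, *Klk4* was at 0.26 from E14.5 to E15.5. From E13.5 to E14.5 *Klk4* turned to -0.80, *Amelx* to -1.59 and *Ambn* to -0.35 without them. These values carry no separate test, since the libraries left out were the high ones for *Klk4* and 1 library then stands for E14.5. Upper-quartile scaling turned *Amelx* from E13.5 to E14.5 to -0.018, and a prior count of 0.5 turned the difference in log2 CPM of *Dspp* there to 0.17. Over 10 counts, *Dspp* was held by 1 library.

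Replicate numbers 1 and 2 do not pair the libraries, and matched best with their own number in no comparison. Number 3 matched best with its own in all 5, and only its deviations correlated over 0.1, in 4 of 5. With the replicate block, 4 members were called from E14.5 to E15.5, 1 from E15.5 to E16.5, 4 from E13.5 to P0 and 4 over 5 stages, and *Odam* from E16.5 to P0 turned to -0.38.

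Leaving out 1 library turned the direction of uncalled changes, with log2 values running -0.20 to 0.60 for *Ambn*, -1.62 to 1.65 for *Amelx* and -0.30 to 1.41 for *Enam* from E13.5 to E14.5. They ran -0.96 to 1.92 for *Enam* and -0.32 to 2.50 for *Odam* from E15.5 to E16.5. They ran -0.27 to 1.97 for *Enam*, -5.09 to 2.27 for *Odam* and -0.90 to 2.42 for *Klk4* from E16.5 to P0. They ran -2.50 to 0.82 for *Klk4* from E13.5 to P0. For the filtered genes the values are differences in mean log2 CPM, not fitted changes: -0.48 to 0.56 for *Amtn* and -0.38 to 0.20 for *Dspp* from E13.5 to E14.5, and -0.56 to 0.15 for *Dspp* from E16.5 to P0. None of these passed the threshold as reported.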

Other observations

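Hair follicle keratins stood out in 1 library. *Krt71*, a keratin of the inner root sheath, was at 15.7 CPM and *Krt25* at 9.97 CPM in E15.5 library 3, while *Krt71* was at most at 0.156 CPM in the other libraries and *Krt25* at most at 0.832 CPM. The summed level of 8 hair follicle genes was 48.0 CPM there and 1.58 to 9.42 CPM elsewhere. E15.5 library 3 is also the E15.5 library with the most *Sp6*, *Odam* and *Ambn*. E16.5 library 3 and P0 library 3, which had more *Sp6*, had *Krt71* at 0.0734 and 0.0435 CPM.

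The chromosome 5 cluster that holds the enamel genes also holds milk caseins. *Csn2*, beta-casein, was at 2.52 CPM in E16.5 library 1 and at most at 0.0435 CPM in the other libraries. The same library had *Scgb1a1*, the secretoglobin of club cells, at 21.6 CPM, against at most 0.348 CPM elsewhere. It was the E16.5 library with 0 counts of *Odam* and the highest *Amelx*.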
